A study of Mus musculus with 32 samples.

Results

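The inflammatory caspase, inflammasome and IL-1 genes were 10 genes: Casp1, Casp4, Casp12, Nlrp3, Pycard, Mefv, Gsdmd, Nlrc4, Il1b and Il18. All 10 were found by gene name among the 28786 gene names of the array, on 11 probes (Pycard has 2), and all 10 were among the 20536 genes that passed the filter on background. Gsdmd, Nlrc4 and Nlrp3 stand on the array under their older names Gsdmdc1, Card12 and Cias1. Probes were matched to the members by gene name, with no use of measured values.

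RNA came from purified thymocytes of 6-week-old C57Bl/6 mice, and each of the 32 samples pooled 2 mice, 1 male and 1 female. P72 and R72 are mice whose p53 carries proline or arginine at codon 72, and each was sampled untreated (0 h) and at 2 h and 4 h after 5 Gy of gamma radiation, on 4 arrays per group that the labels call independent experiments. P53+/+ and P53-/- mice were sampled on 2 untreated arrays each and on 1 array each at 2 h and at 4 h after the same dose. The labels do not say how the codon 72 alleles were made, and they do not say whether the 2 untreated arrays of P53+/+ or of P53-/- came from different pools. Where they did not, the spread within those pairs is technical. The p-values of the P53 comparisons come from a fit of all 32 arrays, so they rest mainly on the spread within the P72 and R72 groups. The P53+/+ and P53-/- arrays were on other slides than the P72 and R72 arrays and were scanned on another day. A difference between these sets of mice thus cannot be told apart from slide or scan day. Because whole thymocyte preparations were measured, fewer cells of a type and less RNA per cell cannot be told apart, and neither can more of either.

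Inflammasomes are cytosolic complexes in which a sensor, such as NLRP3, pyrin (Mefv) or NLRC4, recruits caspase-1, usually through the adaptor ASC (Pycard). Active caspase-1 cuts the IL-1 family precursors IL-1 beta and IL-18 and the pore-forming protein gasdermin D, and mouse caspase-11 (Casp4 in this annotation) cuts gasdermin D after binding bacterial lipopolysaccharide. In the thymus, radiation kills immature thymocytes mainly by p53-dependent apoptosis, and the dead cells are cleared by resident phagocytes.

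The series set out to compare p53 carrying either codon 72 residue in its contact with NF-kB and in genes of immunity and inflammation. For that reason the promoters of Casp1, Casp4, Mefv and Il1b, the members called higher after radiation in P72 and R72 at 4 h and in P53+/+, are shown as the 250 bases before the annotated start, 5′ to 3′ on the gene's strand, from RefSeq (GRCm38.p6). Capitals mark matches to the motifs searched on both strands: the NF-kB site, the p53 decamer and the IRF site (by name), the AP-1 motif TGANTCA, the STAT motif TTCNNNGAA, the ETS motif GAGGAA and the TATA box motif TATAAA.
Casp1: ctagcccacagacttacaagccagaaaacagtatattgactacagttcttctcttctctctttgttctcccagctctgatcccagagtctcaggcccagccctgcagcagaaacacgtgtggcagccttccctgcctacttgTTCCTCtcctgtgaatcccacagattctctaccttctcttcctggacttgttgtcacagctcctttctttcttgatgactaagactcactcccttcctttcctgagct
Casp4: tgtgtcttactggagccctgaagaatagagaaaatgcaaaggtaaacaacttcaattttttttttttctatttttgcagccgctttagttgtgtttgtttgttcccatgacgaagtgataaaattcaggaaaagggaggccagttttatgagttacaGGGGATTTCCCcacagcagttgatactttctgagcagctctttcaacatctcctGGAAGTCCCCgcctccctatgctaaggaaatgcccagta
Mefv: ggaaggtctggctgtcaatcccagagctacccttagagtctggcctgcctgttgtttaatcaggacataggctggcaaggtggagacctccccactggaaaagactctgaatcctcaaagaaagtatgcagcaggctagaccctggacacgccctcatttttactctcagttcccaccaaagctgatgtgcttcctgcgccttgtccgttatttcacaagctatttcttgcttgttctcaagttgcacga
Il1b: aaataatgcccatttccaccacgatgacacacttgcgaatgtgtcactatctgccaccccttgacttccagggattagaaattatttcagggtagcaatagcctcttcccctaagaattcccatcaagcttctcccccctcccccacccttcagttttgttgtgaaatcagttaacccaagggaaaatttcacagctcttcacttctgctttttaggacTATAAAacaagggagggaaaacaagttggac
The windows lie at chr9:5298267-5298516 (Casp1, plus strand), chr9:5308599-5308848 (Casp4, plus strand), chr16:3718125-3718374 (Mefv, minus strand) and chr2:129371140-129371389 (Il1b, minus strand). The Casp4 window held the NF-kB motif at 2 places, 93 to 83 bases before the start, where GGGGATTTCCC holds overlapping matches, and 39 to 30 bases before it on the other strand (GGAAGTCCCC). The NF-kB motif was present in 7.25% of all 32851 windows of this length and the p53 decamer in 7.13%. The Il1b window held TATAAA 31 to 26 bases before the start, a motif in 12.4% of windows, and the Casp1 window held GAGGAA (23.3% of windows) on the minus strand. The Mefv window held none of the motifs. Of the 5 other members with a window, Nlrp3 held GAGGAA at 3 places in the first of its windows. Its second window held an NF-kB motif and a p53 decamer. Casp12 held TTCNNNGAA (7.02% of windows) at 2 places, Pycard held GAGGAA and Il18 held TATAAA, both on the other strand, and Nlrc4 held none. TGANTCA (6.75%) and the IRF site (2.98%) were in no member's window. A match is a run of letters, not a bound site.

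Every level below is the log2 signal of the gene's probe minus the 75th percentile of its array, so 0 is the 75th percentile, and levels of different genes are not comparable. Arrays had between 52.2% and 71.2% of probes well above background, with the lowest and the highest both in the R72 2 h group, whose arrays also differed most from each other (a median absolute log2 difference of up to 0.364, against 0.205 or less in the other groups). The 16 thymocyte markers, among them T cell receptor and Rag genes, were well above background on every array, as the labelled cell type has it. Irradiation acted as labelled: at 4 h the p53 target Bbc3, a pro-apoptotic gene, was higher by 3.33 in P72, by 3.30 in R72 and by 3.28 in P53+/+ (2 h and 4 h averaged), and in P53-/- the difference was 0.02 (adjusted p = 0.977). Cdkn1a, the other p53 target checked, was higher by 4.47 in P72, by 3.68 in R72 and by 4.54 in P53+/+. In P53-/- its difference was 0.99 (limma adjusted p = 0.171). The Trp53 probe did not separate untreated P53+/+ from P53-/- (0.24, adjusted p = 0.813), and whether it lies in the deleted part is not given in the sources used here. Replicate 1 of the untreated P72 arrays was the lowest of its group for every member except Pycard, so results that change without it are given both ways.

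Il1b carried the largest change among the members. IL-1 beta is the cytokine precursor that caspase-1 matures, and its gene was higher at both times in P72 and R72, with the highest level at 4 h. On the 4 untreated P72 arrays Il1b stood at -4.32, -3.44, -3.13 and -3.21. At 2 h the P72 arrays gave -0.61, -0.79, -0.45 and -0.86. At 4 h they gave 1.89, 1.14, 2.34 and 2.14. The 3 groups did not overlap. Untreated R72 arrays gave -2.38, -3.20, -3.09 and -3.05. At 2 h R72 stood at -1.07, -1.64, -1.21 and -0.25, and at 4 h at 1.42, 0.90, 1.27 and 1.71. The R72 groups did not overlap with each other either. In P72 Il1b rose by 2.85 ± 0.30 (SE; 7.20-fold, limma with Benjamini-Hochberg adjustment over all genes tested, adjusted p = 1.36e-06) at 2 h and by 5.41 ± 0.30 (42.4-fold, adjusted p = 4.2e-11) at 4 h. In R72 it rose by 1.89 (3.70-fold, adjusted p = 0.000274) at 2 h and by 4.26 (19.1-fold, adjusted p = 2.32e-09) at 4 h. Within the slides that held both times the 4 h difference was 5.77 and 5.52 in P72 and 4.36 and 4.55 in R72. Under normexp background correction the R72 rise at 2 h was 0.81 and no longer passed (adjusted p = 0.178).

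Il1b was then set against p53 genotype. The 2 untreated P53+/+ arrays gave -3.70 and -3.64, the 2 h array -1.41 and the 4 h array 1.77. The untreated P53-/- arrays gave -3.34 and -3.60, the 2 h array -3.23 and the 4 h array -0.64. At 2 h the P53-/- array was thus at the untreated level, and at 4 h it was where the P72 arrays stood at 2 h. With the irradiated arrays averaged, Il1b rose by 3.85 ± 0.41 (14.4-fold, adjusted p = 6.51e-07) in P53+/+. In P53-/- the difference was 1.54 (unadjusted p = 0.0011, adjusted p = 0.0729). The responses differed by 2.31 ± 0.58 (95% interval 1.11 to 3.51, adjusted p = 0.0225), and irradiated P53+/+ lay above irradiated P53-/- by 2.11 (adjusted p = 0.00121). These calls rest on single irradiated arrays: without the P53+/+ 4 h array the response difference was 0.72 (adjusted p = 0.702) and the irradiated difference 0.52 (adjusted p = 0.631), and without the P53-/- 2 h array they were 1.02 (adjusted p = 0.472) and 0.82 (adjusted p = 0.329). Leaving out any of the 4 untreated arrays gave a response difference of 2.18 to 2.44 with adjusted p of 0.0564 to 0.0848. With the untreated arrays of each genotype averaged to 1 sample the adjusted p was 0.178. Both irradiated P53+/+ arrays were on 1 slide and both irradiated P53-/- arrays on another.

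Ordered by group mean, Il1b was highest at 4 h in P72 (1.88), P53+/+ (1.77) and R72 (1.33). Next came P53-/- at 4 h (-0.64), P72 at 2 h (-0.68), R72 at 2 h (-1.04) and P53+/+ at 2 h (-1.41). The untreated groups and P53-/- at 2 h closed the order, between -2.93 and -3.67. The P72 and R72 ranges at 4 h overlapped, as did those of P72 and R72 at 2 h, and the P53-/- array at 4 h lay inside the P72 range at 2 h. The gap between R72 at 4 h and P53-/- at 4 h was wider than the range of any group. Places of P53 groups among P72 and R72 groups in this order compare arrays of different slides and scan days.

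**Figure D1:**
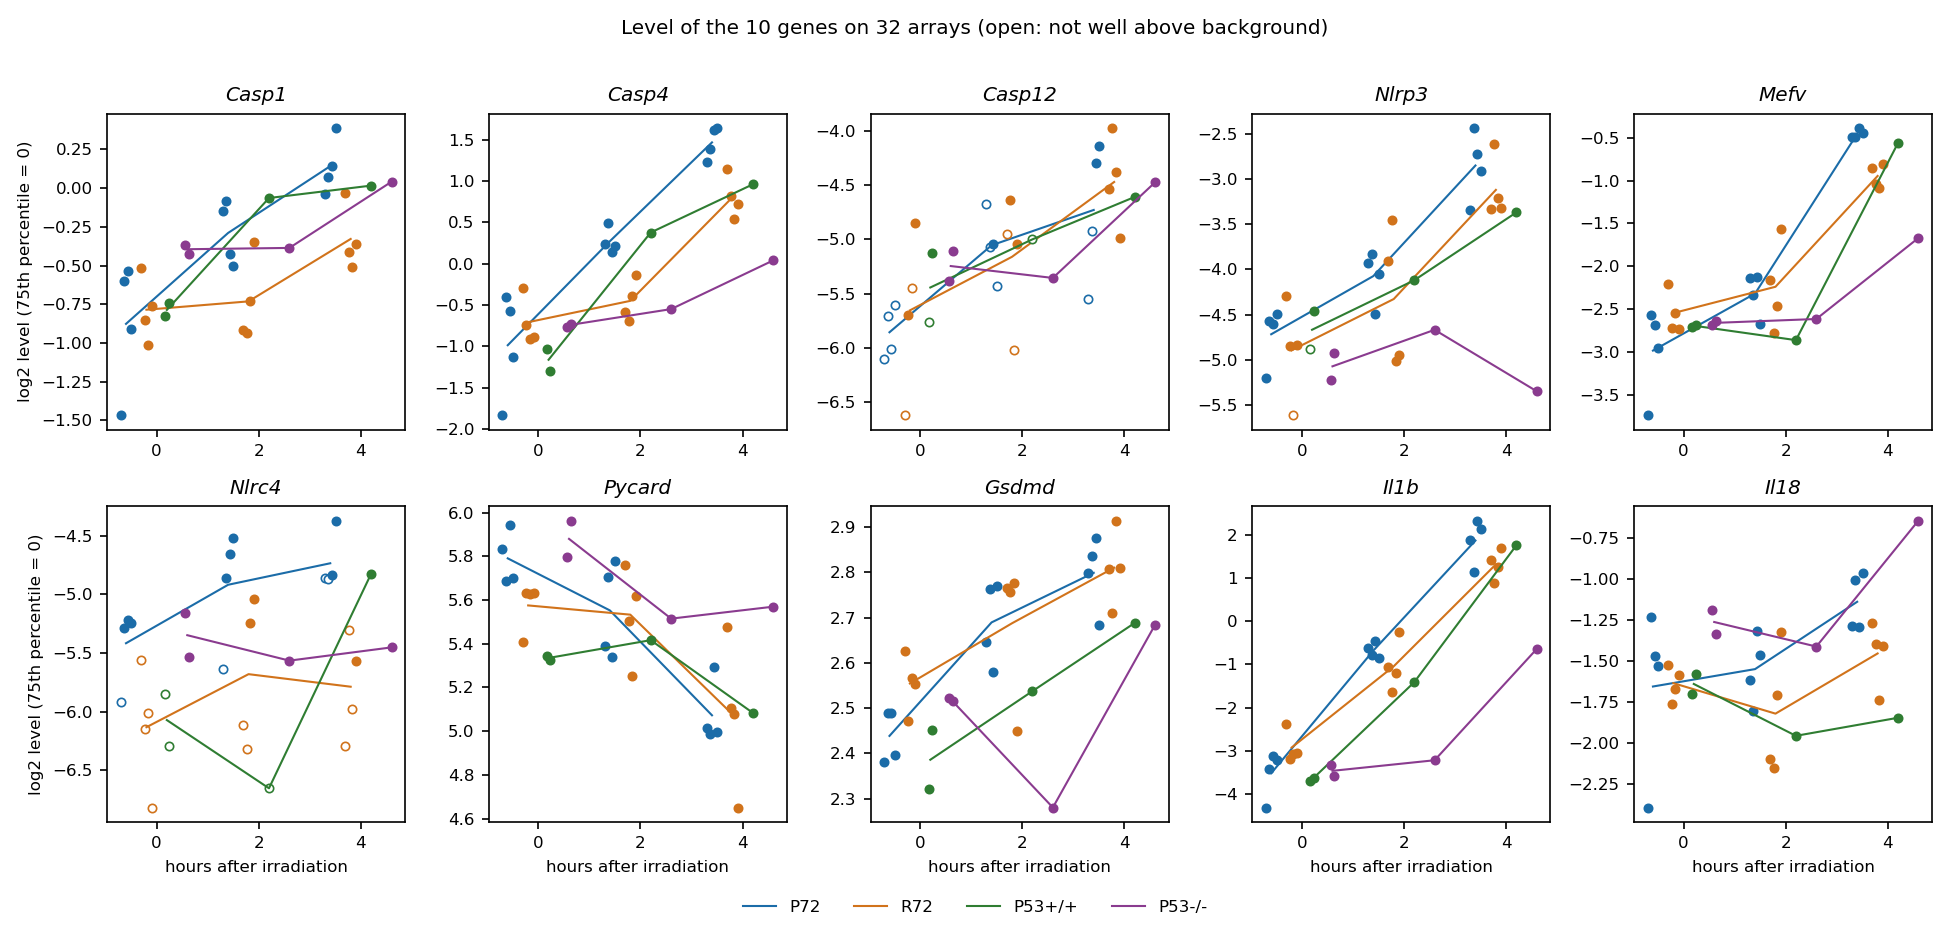
Level of each of the 10 genes (log2 signal, 75th percentile of the array = 0) against hours after irradiation, 1 point per array, shifted sideways by genotype, and a line through the group means; open points are not well above background. Il1b rose at both times in P72 and R72, and Casp4 and Mefv were highest at 4 h. Pycard was lower at 4 h than at 0 h in P72 and R72, and on the single 4 h arrays of P53+/+ and P53-/-.

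Casp4, which encodes the lipopolysaccharide-sensing caspase-11, rose in P72 at 2 h and at 4 h, in R72 at 4 h, and in P53+/+ with 2 h and 4 h averaged. The single P53+/+ array at 2 h (0.38) also lay above both untreated P53+/+ arrays (-1.03 and -1.29). Untreated P72 arrays gave -1.83, -0.41, -0.58 and -1.13. At 2 h they gave 0.24, 0.50, 0.14 and 0.22, and at 4 h 1.23, 1.39, 1.62 and 1.64. The P72 groups did not overlap. Untreated R72 arrays gave -0.29, -0.74, -0.91 and -0.89. At 2 h R72 stood at -0.58, -0.69, -0.39 and -0.14, inside the untreated range except for the last array. At 4 h R72 stood at 1.14, 0.82, 0.54 and 0.72, above every earlier R72 array. In P72 Casp4 rose by 1.26 ± 0.23 (adjusted p = 0.000919) at 2 h and by 2.46 (5.49-fold, adjusted p = 6.72e-08) at 4 h, and in R72 by 1.51 (2.85-fold, adjusted p = 3.78e-05) at 4 h, with 0.26 (adjusted p = 0.497) at 2 h. Without the first untreated P72 array the P72 rise at 4 h was 2.17. Within slides the 4 h difference was 2.35 and 2.48 in P72 and 1.72 and 1.52 in R72.

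In P53+/+ Casp4 stood at -1.03 and -1.29 untreated, 0.38 at 2 h and 0.96 at 4 h. In P53-/- it stood at -0.76 and -0.72 untreated, -0.55 at 2 h and 0.04 at 4 h. Casp4 rose by 1.83 ± 0.31 in P53+/+ (3.56-fold, adjusted p = 0.000271), and in P53-/- the difference was 0.49 (adjusted p = 0.587). The response difference of 1.34 (95% interval 0.42 to 2.26) missed the threshold (adjusted p = 0.0792). It passed without the P53+/+ 2 h array (1.64, adjusted p = 0.0362). Irradiated P53+/+ lay above irradiated P53-/- by 0.92 (adjusted p = 0.039), and this was 0.63 without the P53+/+ 4 h array (adjusted p = 0.413) and 0.63 without the P53-/- 2 h array (adjusted p = 0.326).

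Casp1, the caspase at the core of the canonical inflammasome, moved less. Untreated P72 arrays gave -1.47, -0.60, -0.53 and -0.91, 2 h arrays -0.15, -0.08, -0.43 and -0.50, and 4 h arrays -0.04, 0.08, 0.15 and 0.39. R72 gave -0.52, -0.85, -1.01 and -0.76 untreated, -0.91, -0.94, -0.73 and -0.35 at 2 h, and -0.03, -0.41, -0.51 and -0.36 at 4 h. In P72 each later group lay above the untreated one, and in R72 only the 4 h group did. Casp1 rose by 1.02 in P72 at 4 h (2.03-fold, adjusted p = 9.76e-05; 0.82 without the first untreated array). The P72 rise at 2 h, 0.59 (adjusted p = 0.0354), was 0.39 (adjusted p = 0.143) without that array, and it was also lost on leaving out replicate 4 untreated (0.58) or replicate 1 (0.54) or 2 (0.52) at 2 h. The R72 difference at 4 h was 0.46 (adjusted p = 0.0468), which fell to -0.02 under centring on the array median and lost its call on leaving out any of 6 of the 8 arrays (0.36 to 0.49). In P53+/+ Casp1 stood at -0.83 and -0.74 untreated, -0.06 at 2 h and 0.02 at 4 h, a rise of 0.76 ± 0.25 (adjusted p = 0.0284). That call was lost without either untreated array (0.72, adjusted p = 0.122, and 0.80, adjusted p = 0.0893) or without the 4 h array (0.72, adjusted p = 0.178). In P53-/- Casp1 stood at -0.36 and -0.42 untreated, -0.39 at 2 h and 0.04 at 4 h (0.22, adjusted p = 0.82). The 60 bases of the Casp1 probe span 503 bases of genome, so the probe crosses an intron.

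Casp12, the third inflammatory caspase, was near background. It was well above background on 17 of 32 arrays, with levels from -6.62 to -3.97, and on 0 of 4 untreated P72 arrays. Casp12 was at least 1.90-fold higher at 4 h in P72, where 2 of 4 arrays measured it (means -4.73 and -5.86, adjusted p = 0.0102). In R72 the 4 h difference was 1.18 (adjusted p = 0.00998). Both differences shrank when the arrays were quantile normalised, to 0.03 in P72 (adjusted p = 0.944) and 0.38 in R72 (adjusted p = 0.395), and the authors' value table gave 0.04 and 0.13.

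Among the sensors, Mefv (pyrin) and Nlrp3 rose at 4 h. Mefv stood at -3.74, -2.57, -2.69 and -2.95 on untreated P72 arrays, at -2.14, -2.33, -2.13 and -2.68 at 2 h and at -0.49, -0.49, -0.39 and -0.45 at 4 h. In R72 it stood at -2.20, -2.72, -2.54 and -2.73 untreated, at -2.16, -2.78, -2.47 and -1.56 at 2 h and at -0.86, -1.04, -1.08 and -0.81 at 4 h. In both genotypes the 4 h arrays lay above all others, and the P72 4 h arrays spanned a narrow range. Mefv rose by 2.53 ± 0.23 in P72 (5.78-fold, adjusted p = 4.93e-08; 2.28 without the first untreated array) and by 1.60 in R72 (3.04-fold, adjusted p = 2.27e-05) at 4 h. The 2 h difference in P72, 0.67 (adjusted p = 0.0596), passed without the second untreated array (0.81, adjusted p = 0.0323) and without the fourth 2 h array (0.78, adjusted p = 0.049). Within slides the 4 h difference was 2.66 and 2.43 in P72 and 1.77 and 1.78 in R72. In P53+/+ Mefv stood at -2.71 and -2.69 untreated, -2.86 at 2 h and -0.56 at 4 h. In P53-/- it stood at -2.69 and -2.64 untreated, -2.62 at 2 h and -1.67 at 4 h. The averaged P53+/+ rise of 0.98 ± 0.31 (adjusted p = 0.027) came from the 4 h array alone, since without it the difference was -0.17 (adjusted p = 0.862), and it was also lost without either untreated array (0.97, adjusted p = 0.102, and 0.99, adjusted p = 0.0992). The P53-/- difference was 0.52 (adjusted p = 0.547).

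Nlrp3, the sensor of potassium loss and many danger signals, was low but well above background on 30 of 32 arrays. Untreated P72 arrays gave -5.19, -4.57, -4.60 and -4.50, 2 h arrays -3.93, -3.83, -4.49 and -4.05, and 4 h arrays -3.34, -2.44, -2.72 and -2.91. R72 gave -4.29, -4.84, -5.61 and -4.83 untreated, -3.91, -3.45, -5.01 and -4.94 at 2 h, and -3.33, -2.62, -3.21 and -3.32 at 4 h. The 4 h groups lay above the earlier ones in both genotypes. Nlrp3 rose by 1.86 ± 0.32 in P72 (3.64-fold, adjusted p = 6.42e-05) and by 1.77 in R72 (adjusted p = 0.000184) at 4 h, although under normexp correction the R72 difference was 0.30 (adjusted p = 1.00). In P53+/+ Nlrp3 stood at -4.88 and -4.45 untreated, -4.12 at 2 h and -3.37 at 4 h (0.92, adjusted p = 0.128), and in P53-/- between -5.35 and -4.67 at all times. Irradiated P53+/+ lay above irradiated P53-/- by 1.26 (adjusted p = 0.0431), a call lost without the P53+/+ 4 h array (0.89, adjusted p = 0.411), the P53-/- 4 h array (0.92, adjusted p = 0.243) or the P53-/- 2 h array (1.60, adjusted p = 0.073).

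Nlrc4, which acts downstream of the NAIP receptors for bacterial flagellin and secretion systems, was well above background on 16 of 32 arrays and ranged from -6.82 to -4.37. Its P72 difference at 4 h was 0.68 (adjusted p = 0.0697), and in R72 it was well above background on 0 of 4 untreated and 1 of 4 arrays at 4 h.

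Pycard, the adaptor ASC, was the member that fell. It stood at 5.83, 5.69, 5.94 and 5.70 on untreated P72 arrays and at 5.01, 4.99, 5.29 and 5.00 at 4 h, with no overlap. In R72 it stood at 5.41, 5.63, 5.63 and 5.63 untreated and at 5.47, 5.11, 5.08 and 4.65 at 4 h, where the first array lay inside the untreated range. Pycard fell by 0.72 in P72 (SE 0.15, adjusted p = 0.000335) and by 0.50 in R72 (adjusted p = 0.00876) at 4 h. Its second probe went the same way, by -0.75 in P72 and -0.54 in R72. From 2 h to 4 h Pycard fell by 0.48 in P72 (adjusted p = 0.0171) and by 0.46 in R72 (adjusted p = 0.0323). The former was lost without replicate 2 (-0.43, adjusted p = 0.0542) or replicate 4 (-0.40, adjusted p = 0.0567) at 2 h, and the latter without any of 5 of the 8 arrays (-0.47 to -0.31). In P53+/+ Pycard stood at 5.35 and 5.32 untreated, 5.42 at 2 h and 5.08 at 4 h. In P53-/- it stood at 5.80 and 5.96 untreated, 5.51 at 2 h and 5.57 at 4 h. The irradiated P53-/- arrays thus lay below the untreated ones, though no change of Pycard was called in either genotype. The untreated difference between P53+/+ and P53-/- of -0.54 did not pass (adjusted p = 0.238).

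Gsdmd, the pore-forming substrate of the inflammatory caspases, was steady between arrays. Its group ranges in P72 were 2.38 to 2.49 untreated, 2.58 to 2.77 at 2 h and 2.68 to 2.88 at 4 h, and in R72 they were 2.47 to 2.63, 2.45 to 2.78 and 2.71 to 2.91. The 4 h differences of 0.36 in P72 (SE 0.08, adjusted p = 0.000586) and 0.26 in R72 (adjusted p = 0.0112) turned to -0.26 and -0.22 when each array was centred on its median. The median of all genes itself moved from 0.10 to -0.52 in P72 and from 0.09 to -0.38 in R72 between these scalings. In P72 Gsdmd was 0.26 above that median. These scalings differ by a constant per array, so this value is the same under both by construction and is no check of the rise. The 2 h difference of 0.25 in P72 (adjusted p = 0.0354) was lost without replicate 1 (0.23, adjusted p = 0.0961) or 4 (0.24) untreated, or without replicate 1 (0.26), 2 (0.23) or 4 (0.22) at 2 h.

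Il18, the other caspase-1 substrate among the members, did not follow Il1b. Its ranges in P72 were -2.39 to -1.23 untreated, -1.80 to -1.31 at 2 h and -1.29 to -0.96 at 4 h, and in R72 -1.76 to -1.52, -2.15 to -1.32 and -1.74 to -1.27. The P72 difference at 4 h, 0.52 ± 0.20 (adjusted p = 0.0372), was 0.27 (adjusted p = 0.196) without the first untreated array, was lost without replicate 2 (0.47) or 4 (0.46) at 4 h, and turned to -0.11 under centring on the array median. In R72 it was 0.18 (adjusted p = 0.502). In P53+/+ Il18 stood at -1.70 and -1.58 untreated, -1.95 at 2 h and -1.84 at 4 h, and in P53-/- at -1.19 and -1.34 untreated, -1.41 at 2 h and -0.64 at 4 h. Irradiated P53+/+ lay below irradiated P53-/- by -0.87 ± 0.28 (adjusted p = 0.0292), a call lost without the P53-/- 4 h array (-0.49, adjusted p = 0.329), the P53+/+ 2 h array (-0.82, adjusted p = 0.074) or the P53+/+ 4 h array (-0.93, adjusted p = 0.151).

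Counted over the members, 8 of 10 rose and 1 fell in P72 at 4 h, where 56.6% of all genes tested were called in either direction. The median member difference was 1.07 (0.97 with Casp12 at its bound), against 0.10 over all genes, and 7 rose and 1 fell without the first untreated array. In R72 at 4 h 7 rose and 1 fell (44.8% of all genes called; medians 0.82 and 0.09). In P72 at 2 h 4 rose, Casp1, Casp4, Gsdmd and Il1b (14.5% of all genes; 2 rose without the first untreated array), and in R72 at 2 h Il1b rose (13% of all genes; 2 members without the fourth 2 h array, with Gsdmd at 0.21). From 2 h to 4 h Casp4, Nlrp3, Mefv and Il1b rose and Pycard fell in P72 (32.1% of all genes) and in R72 (21% of all genes). In R72 that count of 5 was 3 without the second 4 h array or the fourth 2 h array. Centring on the array median moved the split of all calls: 63.2% of the P72 calls at 4 h were increases, against 26.7% under that scaling, and 64.3% against 25.8% in R72. Under it 4 members rose and 2 fell in P72 at 4 h, and Casp4, Mefv, Nlrp3 and Il1b were still called higher in both genotypes.

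**Figure D2:**
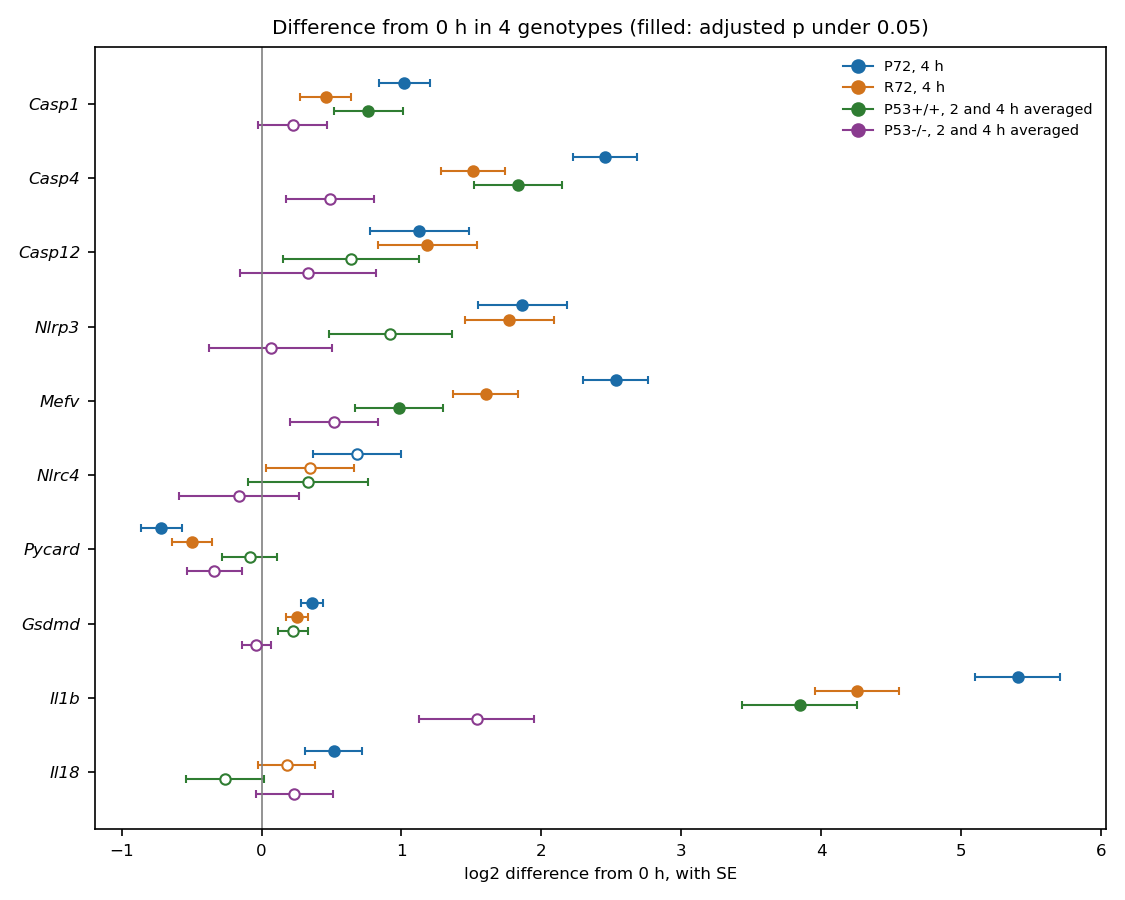
Log2 difference of each of the 10 genes from untreated, with SE, in P72 and R72 at 4 h and in irradiated P53+/+ and P53-/- (2 h and 4 h averaged); filled points have an adjusted p under 0.05. Il1b reached 5.41 in P72 and 4.26 in R72, and in P53-/- no member passed; the increases of Gsdmd in P72 and R72, Il18 in P72 and Casp1 in R72 change sign when arrays are centred on their median.

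The P72 and R72 genotypes were compared at each time and by the difference of their responses. The count of members called was 0 at 0 h, at 2 h and at 4 h, where 0.925%, 1.29% and 1.26% of all genes were called. The responses gave 0 called members at 2 h (0.00487% of all genes) and at 4 h (0% of all genes). At an unadjusted p under 0.05, 1, 3 and 4 members passed at 0 h, 2 h and 4 h (9.57%, 16.9% and 13.6% of all genes), and 2 and 4 members in the responses at 2 h and 4 h (4.59% and 5.63% of all genes).

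At 4 h the P72 and R72 arrays did not overlap for Casp4 (0.67 higher in P72, 95% interval 0.18 to 1.15, adjusted p = 0.187), Mefv (0.49, adjusted p = 0.359) and Nlrc4 (1.05, adjusted p = 0.109). Nlrc4 was well above background there on 2 of 4 P72 and 1 of 4 R72 arrays. The share of all genes whose P72 and R72 arrays did not overlap was not counted at any time, so these separations are descriptions only. Casp4 was also apart at 2 h (0.72, adjusted p = 0.134), and by 1.07 and 0.61 within the 2 slides that held both genotypes. Nlrc4 was also higher in P72 at 0 h (0.72, adjusted p = 0.439) and at 2 h (0.76, adjusted p = 0.229), with most of its R72 arrays not well above background. Casp1 was 0.47 higher in P72 at 4 h (adjusted p = 0.242) and Il1b 0.55 (adjusted p = 0.442). The P72 response at 2 h exceeded that of R72 by 1.00 for Casp4 (95% interval 0.32 to 1.68) and by 0.96 for Il1b (0.067 to 1.85), both with a limma adjusted p of 0.934. The P72 response at 4 h exceeded that of R72 by 1.15 for Il1b (95% interval 0.26 to 2.04, limma adjusted p = 0.782), by 0.94 for Casp4 (0.26 to 1.62, adjusted p = 0.781) and by 0.93 for Mefv (0.24 to 1.61, adjusted p = 0.781). Without the first untreated P72 array the 4 h values became 0.88, 0.66 and 0.68. At 0 h Il1b was lower in P72 by -0.60, and Pycard was the member whose groups did not overlap. No slide held both genotypes at 0 h or at 4 h, so there is no within-slide value there, but 2 slides that held arrays of both genotypes at other times allow a fit with slide as a fixed block. In that fit the 4 h difference was 0.66 for Casp4, 0.29 for Mefv, 0.87 for Nlrc4 and 0.26 for Il1b, the 0 h difference of Il1b was -1.03, and 0 members were called.

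**Figure D3:**
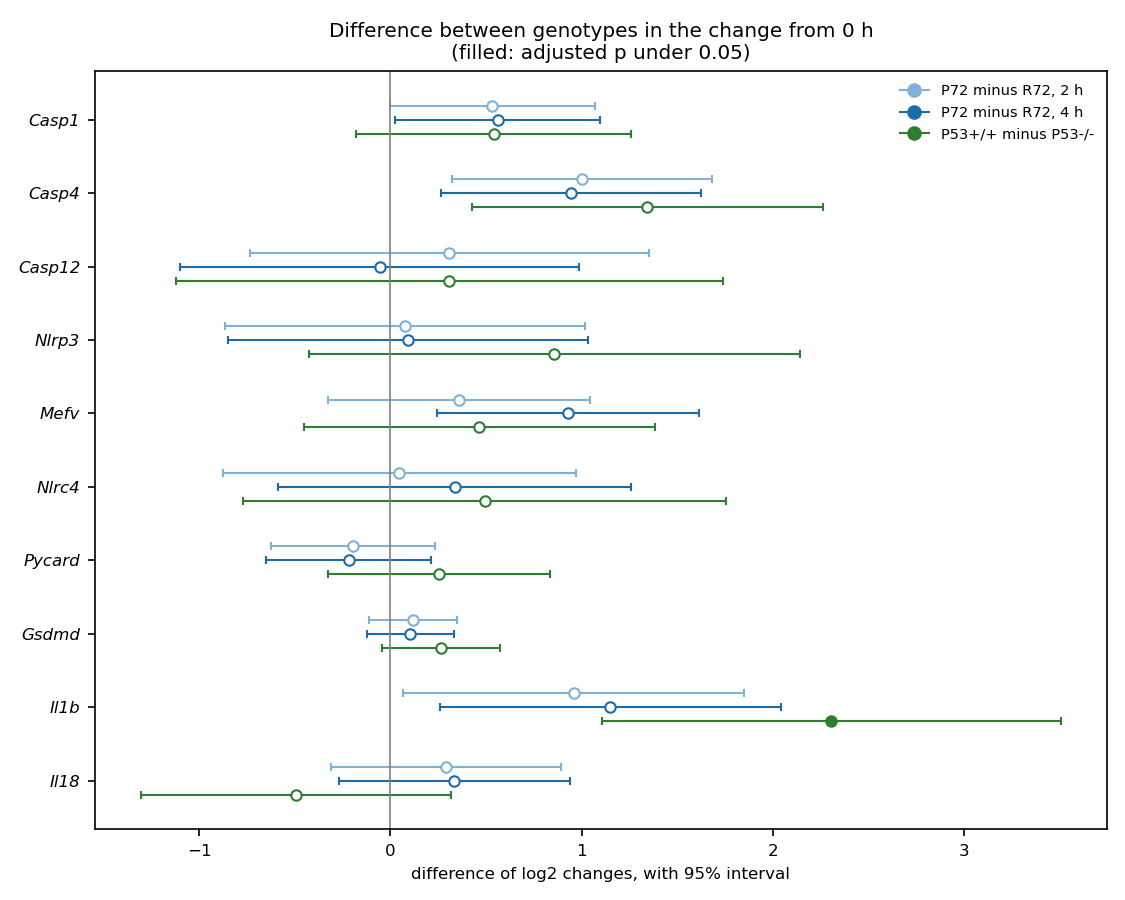
Difference between responses for each of the 10 genes, P72 minus R72 at 2 h and 4 h and P53+/+ minus P53-/-, in log2 units with 95% intervals; filled points have an adjusted p under 0.05. For P72 against R72 no member passed, and for P53+/+ against P53-/- Il1b passed with 2.31.

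In P53+/+ 4 members rose after irradiation, Casp1, Casp4, Mefv and Il1b (23.6% of all genes called; medians 0.70 for the members and 0.09 for all genes). This became 2 without the 4 h array or without either untreated array. In P53-/- 0 members were called (1.07% of all genes; 1 at an unadjusted p under 0.05, against 12.5% of all genes), and Il1b passed without the 2 h array (2.83, adjusted p = 0.0145). Untreated, 0 members differed between P53+/+ and P53-/- (0.711% of all genes; 1 at an unadjusted p under 0.05, against 11.6%). Irradiated, 3 were higher and 1 lower in P53+/+ (21.8% of all genes), falling to 0 without the P53+/+ 4 h array, 1 without the P53-/- 2 h array and 2 without the P53-/- 4 h array. In the response difference 1 member, Il1b, was called (5.42% of all genes). Casp4 and Mefv joined it without the P53+/+ 2 h array, and the count was 0 without any other of the 8 arrays except the P53-/- 4 h array.

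The lists of genes around the members were set with earlier results of these data known. Calls of list genes in the P53 groups rest on single irradiated arrays at each time. Unlike the member calls, they were not examined with single P53 arrays left out. Of 14 other IL-1 family ligands, receptors and antagonists 11 could be tested, and 9 rose and 0 fell in P72 at 4 h (median 2.02), and 7 rose in R72, which became 8 up and 2 down, and 5 up and 3 down, under centring on the array median. The 9 of 11 in P72 and 7 of 11 in R72 stand beside 56.6% and 44.8% of all genes called. Il1rn, the receptor antagonist, had group ranges in P72 of -3.16 to -2.58 untreated and 0.04 to 0.70 at 4 h, and rose by 3.22 ± 0.24 (adjusted p = 3.93e-09), and by 2.33 in R72. Il1r2, the decoy receptor, rose by 2.57 and 1.34, Il1rl1, the IL-33 receptor, by 2.38 and 1.80, and Il18r1, the IL-18 receptor, by 1.504 and 1.01 in P72 and R72. Il1a, the other IL-1 ligand, named here after its values were seen, was well above background on 0 of 4 untreated P72 arrays and 4 of 4 at 4 h, where it was at least 6.88-fold higher (means -2.79 and -6.01, adjusted p = 7.77e-06). In P53+/+, where 23.6% of all genes were called, 5 of the list rose (Il1rn by 1.79, Il1r2 by 1.28, Il18rap by 1.19, Il1rl1 by 1.05 and Il18r1 by 0.62) and Il18bp, the secreted IL-18 inhibitor, fell by 0.56. In P53-/-, where 1.07% of all genes were called, Il1rl1 rose by 1.77 (adjusted p = 0.0118): it stood at -4.43 and -4.25 untreated, -1.69 at 2 h and -3.45 at 4 h. At an unadjusted limma p under 0.05 in either direction there were 6 of 11 in P53-/- (12.5% of all genes). In P53+/+ there were also 6 of 11 (37.7% of all genes). Il1rn was 0.24 (adjusted p = 0.87) in P53-/-, and the response difference of 1.54 missed the threshold (adjusted p = 0.0589).

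**Figure D4:**
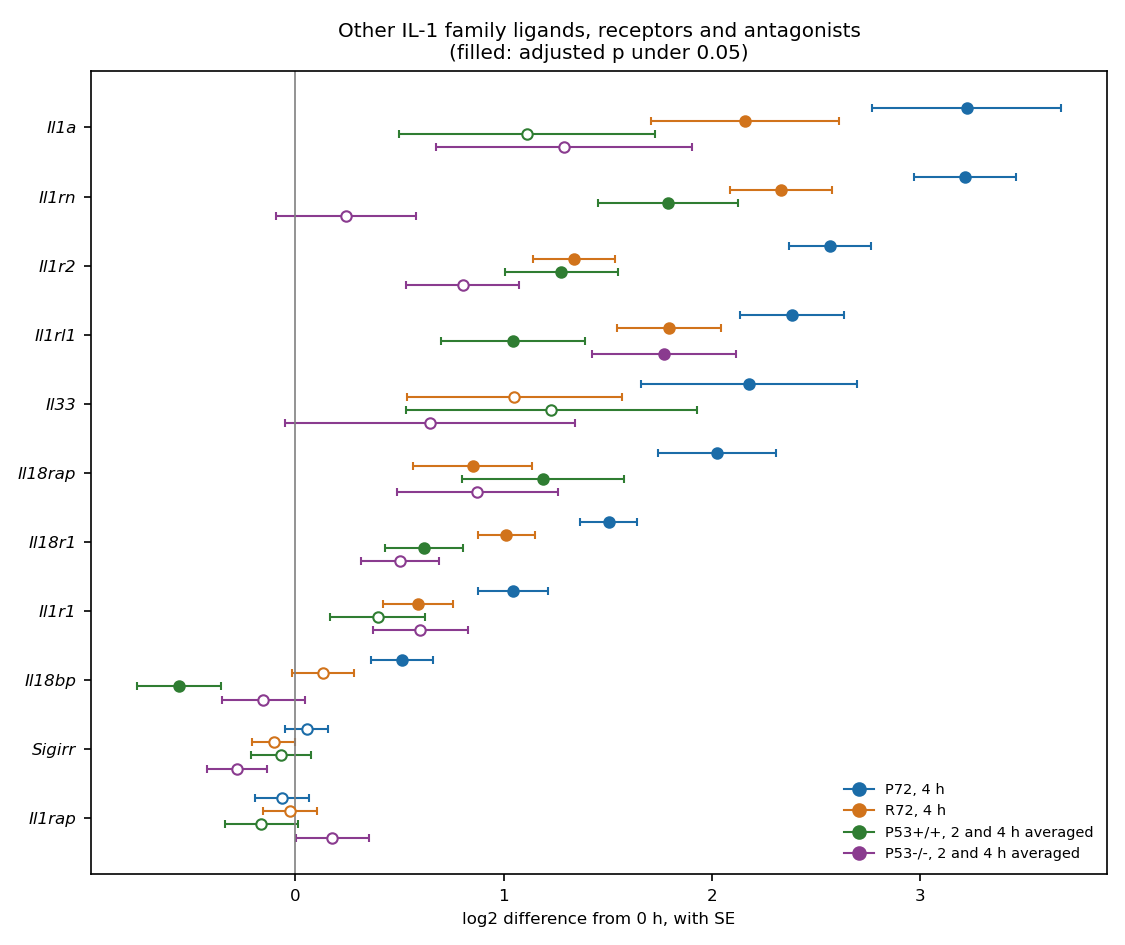
Log2 difference from untreated, with SE, of the 11 tested genes of the other IL-1 family list in P72 and R72 at 4 h and in irradiated P53+/+ and P53-/-; filled points have an adjusted p under 0.05. In P72 9 genes were called higher, led by Il1rn and Il1a, and in P53-/- 1 gene, Il1rl1; in P72 Il18bp (0.51) turns to -0.11 when arrays are centred on their median.

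Of 17 other sensors and inflammasome regulators 12 could be tested. In P72 at 4 h 9 rose and 1 fell (median 0.89, or 0.57 with 2 genes at their bound), and in R72 8 rose, beside 56.6% and 44.8% of all genes called. The guanylate-binding proteins Gbp3 and Gbp5, which open pathogen vacuoles and help inflammasomes assemble, rose by 1.10 and 1.09 in P72 and by 0.94 and 0.83 in R72. Naip5, a flagellin receptor, rose by 1.12 in P72 and 0.64 in R72, and Naip6 was at least 1.61-fold higher in P72 (means -4.96 and -7.13) and at least 1.41-fold higher in R72. In P53+/+ Gbp3 (1.11), Gbp5 (0.95), Gbp2 (0.42) and Nlrp10 (1.55) rose, where 23.6% of all genes were called. In P53-/- 0 of 12 were called (1.07% of all genes), with 2 at an unadjusted p under 0.05 (12.5% of all genes). Under centring on the array median the P72 counts were 5 up and 3 down and the R72 counts 2 up and 3 down.

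The other caspases and executors of lytic death, 10 of 10 tested, were called in both directions, 6 of 10 in P72 and 4 of 10 in R72 at 4 h, near the 56.6% and 44.8% of all genes. In P72 at 4 h the membrane-rupture gene Ninj1 (0.57) and the necroptosis effector Mlkl (0.63) were called higher, and Ninj1 turns to -0.05 under centring on the array median. The apoptotic caspase gene Casp6 fell by 0.30, and the necroptosis kinase gene Ripk3 fell by 0.36. In R72 Ripk3 and Casp6 fell by 0.43 and 0.20, and Ninj1 was called at 0.35, which turns to -0.13. In P53+/+, where 23.6% of all genes were called, Mlkl (0.88) and the gasdermin gene Gsdme (0.72) rose. In P53-/-, where 1.07% of all genes were called, Gsdme rose by 1.24. At an unadjusted limma p under 0.05 there were 5 of 10 in P53+/+ (37.7% of all genes) and 3 of 10 in P53-/- (12.5% of all genes). Of the 11 receptor signalling genes, all tested, 5 were called in P72 and 3 in R72 at 4 h, below the shares over all genes. Irak2, a kinase downstream of IL-1 and Toll-like receptors, rose by 1.27 in P72, 0.78 in R72 and 0.56 in P53+/+. In P72 Irak3 (0.48) and the adaptor Myd88 (0.35) were called higher but turn to -0.14 and -0.27 under centring on the array median, and Traf6 and Tollip fell by 0.38 and 0.28. In R72 Irak1 and Traf6 fell by 0.26 and 0.31, and in P53+/+ Tollip and Traf6 fell by 0.54 and 0.53. In P53-/- 0 of 11 were called (1.07% of all genes), with 2 at an unadjusted p under 0.05 (12.5% of all genes). In the response difference of P72 and R72 at 4 h 0 genes of these 4 lists passed. The unadjusted p was under 0.05 for 4 of 11 IL-1 family, 2 of 11 signalling, 1 of 10 executor and 0 of 12 sensor genes. Over all genes it was so for 5.63%. In the response difference of P53+/+ and P53-/- 0 passed, with 1, 0, 2 and 2 at an unadjusted p under 0.05, all below the 22.4% of all genes.

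Several members, such as Il1b, Nlrp3 and Mefv, are known as genes of myeloid cells, so markers of other cell types were measured beside them. Of all genes tested, 56.6% were called in P72 and 44.8% in R72 at 4 h, and the marker counts stand beside those shares. The summed signal of 13 neutrophil markers, in units of the array's 75th percentile, was 35.5 to 63.2 on untreated P72 arrays and 71.8 to 148 at 4 h, and 13 of 13 were called higher (12 without the first untreated array). In R72 it was 68.7 to 88.5 and 68.3 to 140, with 2 of 13 called. The untreated P72 sums thus lay below all untreated R72 sums, and the ranges of the 2 genotypes overlapped at 4 h. Between P72 and R72, 12 of 13 neutrophil markers had an unadjusted limma p under 0.05 at 0 h (9.57% of all genes). At 4 h 0 of 13 did (13.6% of all genes). Of thymic epithelial markers 6 of 11 did at 0 h and 0 of 11 at 4 h, and of B cell markers 3 of 6 and 1 of 6. Of macrophage and monocyte markers 1 of 13 did at 0 h and 4 of 13 at 4 h, and of dendritic cell markers 1 of 12 and 5 of 12. The sum over 13 macrophage and monocyte markers was 30.4 to 57.4 and 80.8 to 108 in P72 (8 of 13 called) and 49.2 to 73.3 and 68.4 to 107 in R72 (4 of 13). Dendritic cell markers gave 16.7 to 27.9 and 44.2 to 50.2 in P72 (9 of 12 called) and 19.8 to 25.3 and 27.3 to 46.6 in R72 (7 of 12). Thymic epithelial markers gave 11.9 to 28.4 and 52.5 to 76.0 in P72 (9 of 11 called) and 32.8 to 41.7 and 55.5 to 81.9 in R72 (6 of 11). In P72 the macrophage count was near the share over all genes, and in R72 the neutrophil and macrophage counts were below it and the ranges of both sums overlapped between 0 h and 4 h. The lowest macrophage, dendritic and epithelial sums of the untreated P72 group were all on the first array, where Casp1, Casp4, Mefv and Il1b were lowest too. Under centring on the array median the P72 counts were 7, 3, 5 and 9 in the same order, with 1 dendritic marker lower. The largest changes in P72, 1 from each list, were those of Cxcr2 (2.41), Msr1 (2.17), Cd83 (2.15) and Krt18 (2.17). The neutrophil elastase gene Elane was well above background on 0 of 4 untreated P72 arrays and 1 of 4 at 4 h, and Cd209a on 1 of 4 at both times.

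In the P53 groups the sums at 4 h were above untreated for all 4 lists in P53+/+, and for the neutrophil list in P53-/-. From untreated to 4 h the neutrophil sum went from 29.6 and 30.5 to 90.7 in P53+/+ and from 39.8 to 49.2 in P53-/-. The macrophage sum went from 42.8 to 72.5 in P53+/+ and from 56.9 and 57.4 to 53.6 in P53-/-. The dendritic sum went from 21.1 and 21.4 to 37.7 and from 20.3 and 22.1 to 18.7, and the epithelial sum from 31.2 and 31.7 to 54.3 and from 36.1 and 36.5 to 20.3. In P53+/+ 2 of 13 macrophage, 7 of 13 neutrophil, 1 of 12 dendritic and 3 of 11 epithelial markers were called higher and 1 dendritic marker lower. Of all genes 23.6% were called there, and apart from the neutrophil count these counts were near or below that share. In P53-/- 0 of each were called, beside 1.07% of all genes. At an unadjusted p under 0.05 there were 3, 3, 0 and 2 in P53-/-, beside 12.5% of all genes. The summed signal of the 2 erythroid markers went from 134.9 and 135.8 untreated to 99.6 at 2 h and 19.4 at 4 h in P53+/+, and from 137.4 and 139.2 to 83.1 and 76.8 in P53-/-. Of these markers 0 of 2 were called in either genotype, and 2 of 2 were lower in P53+/+ at an unadjusted p under 0.05 (37.7% of all genes). The other lists stand beside 56.6% of all genes called in P72 at 4 h. There 1 of 6 B cell markers rose and 1 fell, and 2 of 8 fibroblast and endothelial markers rose. Of the erythroid markers 0 of 2 were called, and of the 16 thymocyte markers 1 rose and 7 fell. The part of these cells in the member results was not tested.

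**Figure D5:**
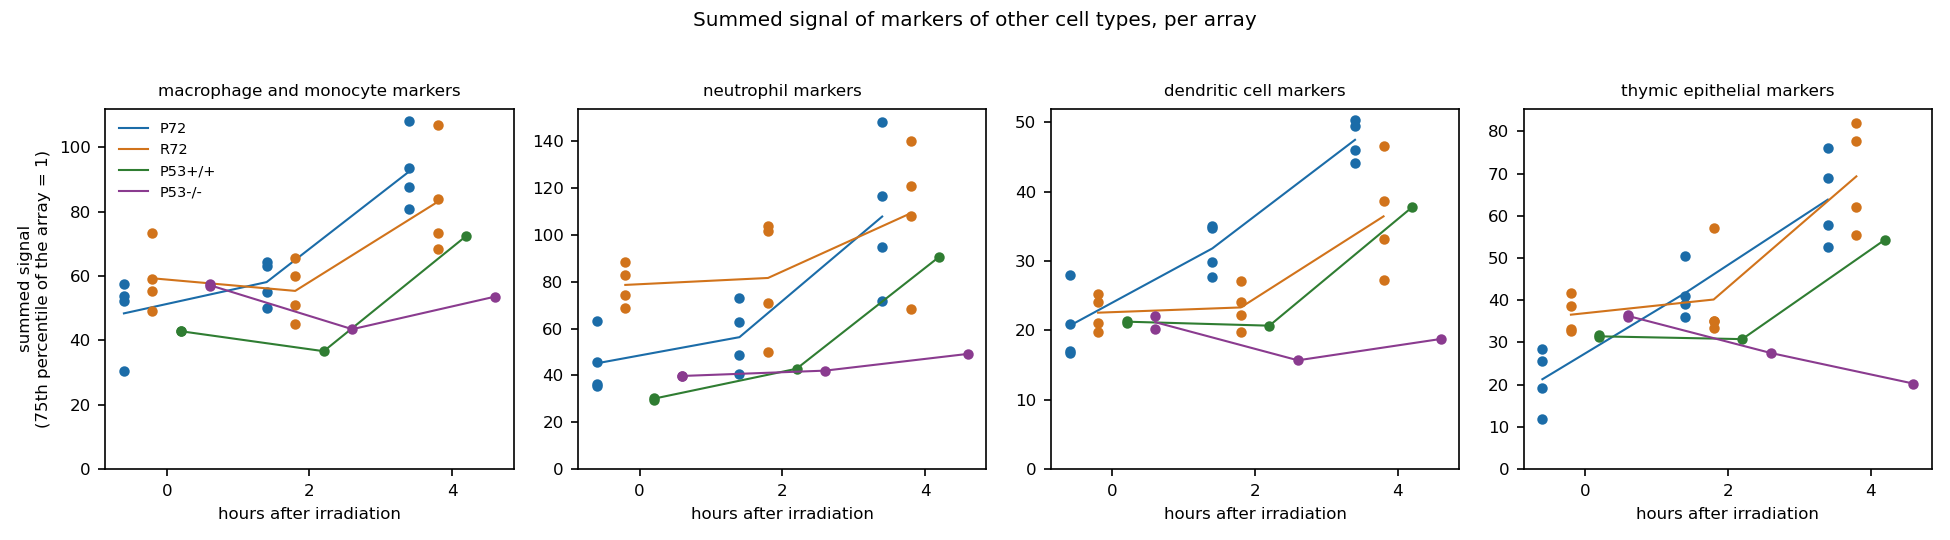
Summed signal of the markers of macrophages, neutrophils, dendritic cells and thymic epithelium per array (75th percentile of the array = 1) against hours after irradiation, with lines through the group means. At 4 h every P72 array lies above every untreated P72 array in all 4 lists, and the P53-/- 4 h array lies below both untreated P53-/- arrays for macrophage, dendritic and epithelial markers.

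Over the 32 arrays Pearson's r with Il1b was 0.934 for Casp4, 0.925 for Mefv, 0.805 for Nlrp3, 0.798 for Gsdmd and 0.723 for Casp1. It was 0.651 for Casp12, 0.425 for Nlrc4, 0.317 for Il18 and -0.724 for Pycard. The genes most like Il1b were Ier3 (0.974), Plaur (0.965) and Csf1 (0.962), and those most like Mefv were Plek (0.98), Csf1 (0.973) and Tnfaip2 (0.973). For Casp4 they were Ifitm7 (0.952), Litaf (0.945) and Cldn7 (0.943), and for Casp1 Ctla2b (0.877), F11r (0.874) and Evi2a (0.873). These are descriptions over arrays that share time, genotype and slide.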

How the data were processed

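RNA was hybridised to 1-colour Agilent arrays, 1 per sample, and the files hold the scanner's spot intensity, background-corrected in Feature Extraction 9.5.3 by the authors, per the submitters' processing notes. The authors' deposited value table, on a log2 scale with unstated centring, served only as an alternative. From the processed intensity, log2 was taken after scaling each array to its 75th percentile, spots of a probe were averaged, 1639 control spots and flagged spots were left out, and genes well above background on at least 4 of 32 arrays were kept, each by its probe of highest mean. Array gene names were updated through RefSeq accessions (GRCm38.p6) for 5141 probes. The 24 P72 and R72 arrays, or all 32 for P53 comparisons, were fitted by group in limma 3.58.1 (R 4.3.3), with Benjamini-Hochberg adjustment over all genes tested and a threshold of 0.05. Single arrays were taken to vary like the other groups, and p-values cover only the spread between these samples. The scripts were tested on simulated data.

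All 10 members are named, and of each of the other 4 pathway lists the 4 genes with the smallest p in P72 at 4 h and the 2 in each response comparison if past the threshold. Genes named for R72 or the P53 groups beyond these were chosen after their values were seen. The 3 genes, among those with a plain gene symbol, most correlated with Casp1, Casp4, Mefv and Il1b, and for each marker list the genes near background and the largest change, complete the rule. The members and lists were chosen with earlier results of these data known. Some genes of the pathway lists are not reported here.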

Additional observations from a re-analysis of the deposited data

Results flagged for a closer look

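Of 60 sets of 1 gene in 1 group of 4 arrays, 6 held an array far from the other 3 by Dixon's test at the 95% level, and chance gives about 1 in 20. Gsdmd was 2.45 in R72 2 h replicate 4, against 2.76 to 2.78 on the others. Nlrc4 was -5.92 in untreated P72 replicate 1, against -5.28 to -5.22, and -4.37 in P72 4 h replicate 4, against -4.87 to -4.84. Nlrp3 was -5.19 in untreated P72 replicate 1, against -4.60 to -4.50. Pycard was 5.29 in P72 4 h replicate 3, against 4.99 to 5.01, and 5.41 in R72 untreated replicate 1, against 5.63 on all the others. The Il1b response differed between P53+/+ and P53-/- by 2.31 in limma (adjusted p = 0.0225), and this rested on single irradiated arrays.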

How the results depend on the processing

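Outside the fits that leave out 1 array, 2004 of 2132 member results kept direction and side of the threshold, 104 lost and 18 gained a call and 6 reversed. Of 1280 that leave out 1 array, 1223 kept both, 49 lost and 7 gained a call and 1 reversed. Reversals came from array-median centring in 5 cases: Gsdmd in P72 at 4 h (-0.26; from 2 h to 4 h -0.30) and R72 (-0.22), Il18 in P72 (-0.11) and Casp1 in R72 (-0.020). Nlrc4 in R72 from 2 h to 4 h was called at 0.55 under capped normexp, and Mefv in P53+/+ was -0.17 without the 4 h array. Members called, main against alternative, were as follows. P72 at 2 h (4): 2 under normexp, capped normexp, no filter, slide as a fixed block and replicates 3 and 4, and 1 with replicates 1 and 2. P72 from 2 h to 4 h (5): 3 under normexp and 2 with replicates 1 and 2. R72 at 2 h (1): 0 under normexp and with replicates 1 and 2, and 2 with replicates 3 and 4. R72 at 4 h (8): 3 under normexp, and 5 under quantile normalisation, array-median centring, the authors' table and either pair of replicates. R72 from 2 h to 4 h (5): 3 under normexp, 0 with replicates 1 and 2, and 3 without R72 2 h replicates 1 and 4. P53+/+ (4): 2 under array-median centring, fixed slide and averaged untreated arrays. P53-/- (0): 1 with the filter on all arrays and with slide as a random block. Irradiated P53+/+ against P53-/- (4): 1 under normexp and fixed slide, 2 under random slide and averaged untreated arrays. P53 response difference (1): 0 under normexp, fixed slide and averaged untreated arrays, and 2 under capped normexp, the authors' table and the 8 P53 arrays alone. Leaving out 1 array gave 2 to 5 in P72 at 2 h, 8 to 9 at 4 h and 4 to 5 between them, 1 to 2, 7 to 8 and 3 to 5 in R72, 2 to 4 in P53+/+ (where Mefv ran from -0.17 to 2.13), 0 to 1 in P53-/-, 0 to 4 between irradiated genotypes, 0 to 3 in their response difference, and 0 in the other comparisons. With the replicate block the counts were 4, 9 and 5 in P72 and 1, 7 and 5 in R72, and the changed call was Casp1 in R72 at 4 h (0.46, adjusted p = 0.0612). The main fit has no such block, because the labels do not say that a replicate number marks a shared day or litter. Yet same-number arrays were more alike. Their deviations from group means correlated by -0.27 to 0.53 (median 0.124), against a median of -0.031 for other numbers. Of 24 arrays 21 were closest to an array of their own number, so same-number arrays share some variation. Many same-number arrays also shared a slide, and replicates 1 and 2 were on other slides and scan days than replicates 3 and 4. The part of slide or scan day in this likeness was not tested. Capped normexp, R72 2 h without replicates 1 and 4, and averaged untreated arrays were chosen after seeing the data. Apart from the centring and fewer samples, the cause was not tested. Casp12 and Nlrc4 are limited by signal over background.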
